A study of Xenopus laevis with 4 samples.

Results

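GATA4, GATA5 and GATA6 are zinc finger transcription factors that bind the GATA motif and act early in endoderm and heart precursors, where they switch on one another and further endoderm genes. HHEX is a homeodomain repressor of the anterior endoderm, needed for liver and foregut, and it also acts in precursors of blood and vessels. Presumptive ectoderm of the frog embryo normally forms epidermis and neural tissue, and factors of this group are known there mainly as genes that are switched on when ectoderm is induced to form endoderm. The probe sets described here are those of the microarray table whose only gene symbol is gata4.L, gata4.S, gata5.L, gata5.S, gata6.L, gata6.S or hhex.L. They number 11 of 32539 probe sets that are not controls, for 7 gene copies of 11303 in the table. The endings L and S name the 2 copies of a gene that this allotetraploid species carries, called homeologs. The RefSeq gene table also lists hhex.S, which no probe set of the annotation names.

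Embryos of Xenopus laevis received synthetic RNA at the 2-cell stage. Their presumptive ectoderm (animal caps) was cut at stage 9 to 10, kept in culture and taken for RNA at the equivalent of stage 12. Caps injected with ICD RNA, commonly the active intracellular part of the receptor Notch, gave 2 arrays. Caps injected with DBM RNA, commonly a form of the Notch effector Su(H) that does not bind DNA, gave 1 array. Caps injected with HMM RNA, which the labels do not spell out, gave 1 array. Every group therefore carried an injected RNA, no uninjected caps were analysed here, and the labels give neither the number of embryos pooled nor the clutch of each ICD array. The p-values then reflect array-to-array spread, and that spread may be technical. Below, fell and rose mean lower or higher with ICD than with the other RNAs. Without uninjected caps, a fall with ICD cannot be told apart from a rise with DBM and HMM, nor a rise from a fall.

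The values are MAS5 signals, the brightness of a probe set on a linear scale. Trimmed mean signals ran from 150.7 on ICD replicate 1 to 408.9 with DBM, and each array was rescaled to the common trimmed mean. The median rescaled signal was then 66.0 on ICD replicate 1 and 73.1 to 74.8 on the others. Differences are in log2(rescaled signal + 17.99) and understate the change of dim probe sets. The direct Notch targets hey1.S (42.4-fold higher, adjusted p = 2.76e-04) and hes5.2.L (adjusted p = 2.65e-04) were higher on both ICD arrays in the limma test, which checks the labels. hes5.2.L was dim with HMM (9.23) and DBM (27.2), under the filter level of 41.37 used below, so it entered the test through ICD. Of 22 probe sets for 9 measured epidermal markers 21 passed the filter on dim signals, among them krt12.4.L, tfap2a.L and dlx3.L. Of all probe sets 19523 of 32539 passed, and of marker probe sets 9 of 10 for neural tissue, 4 of 7 for mesoderm and 0 of 10 for endoderm. Epidermal markers were thus measured in the labelled tissue, but passing the filter is not specific to it.

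Of the GATA and hhex probe sets 8 of 11 passed the filter on dim signals. Of these 8, 4 were called lower with ICD than with the mean of DBM and HMM. Of the 11 probe sets, 9 had both ICD arrays below both DBM and HMM, an order found in 19.5% of all probe sets. The exceptions were gata5.L and the second probe set of gata4.L, whose groups overlapped. The median log2 difference of ICD from the mean of DBM and HMM was -1.50 over the 11 probe sets and 0.01 over all 32539. A filter on dim probe sets, a mean rescaled signal of at least 41.37, left 8 of the 11 for the limma test. Of these, 4 had both ICD arrays under that level, the brighter ones of gata4.L, gata6.S and hhex.L and that of gata6.L. They entered the test through the DBM and HMM signals, so the count of calls is given as a description only. In that test gata6.S, hhex.L, gata4.S and gata5.S fell, each with 1 probe set, against 2.04% of 19523 probe sets called lower with ICD and 1.9% called higher. The other 4 tested probe sets, those of gata4.L, gata5.L and gata6.L and the second of gata4.S, did not pass, and all 11 log2 differences were negative. When all 11 were tested with no filter, 2 passed limma, gata6.S (adjusted p = 0.0112) and hhex.L (0.0319), against 0.759% of 32539 probe sets called lower. In caps taken whole, fewer cells that make a transcript and less transcript per cell cannot be told apart.

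**Figure D1:**
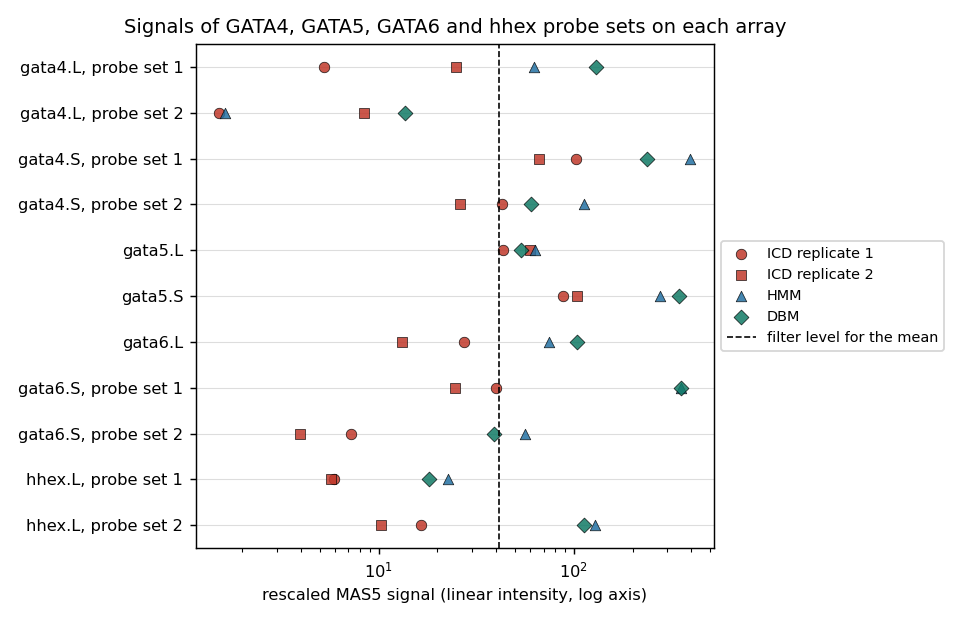
Rescaled MAS5 signal (log axis) of each probe set on the 4 arrays, with the filter level of 41.37 as a dashed line. Both ICD arrays lie left of DBM and HMM for 9 of the 11 probe sets, and the highest ICD signal is 103.4.

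gata6.S had the largest difference of the GATA genes. GATA6 acts in endoderm and in the upkeep of heart precursors. The main probe set of gata6.S (Entrez Gene 397845, Xl2.23009.1.S1_at) stood at 40.02 on ICD replicate 1, 24.6 on ICD replicate 2, 356.3 with HMM and 355.0 with DBM. The ICD arrays were low and the other arrays were nearly equal. Both ICD signals lie under the filter level, so this probe set entered the test through DBM and HMM. With no filter its limma adjusted p against the mean of DBM and HMM was 0.0112. The mean with ICD was 32.3 ± 10.9 (SD, n = 2), and the gene fell 7.52-fold on the offset scale (log2 difference -2.91 ± 0.34 SE, limma adjusted p = 0.00799). It was also called against each RNA by itself, with -2.91 against DBM (adjusted p = 0.0250, 1.48% of probe sets called lower) and -2.91 against HMM (adjusted p = 0.0228, 0.507% called lower). These contrasts share the ICD arrays, and in each the single DBM or HMM array is assumed to vary as the ICD pair did. The second probe set of gata6.S stood at 7.22 and 3.94 on the ICD arrays, 56.2 with HMM and 38.9 with DBM. It had the same order but was too dim for the filter, with a log2 difference of -1.47 and an adjusted p of 0.0699 when every probe set was tested. The probe set of gata6.L (Entrez Gene 399082) stood at 27.3 and 13.2 on the ICD arrays, 74.9 with HMM and 104.1 with DBM, without overlap, and did not pass (log2 difference -1.50 ± 0.35 SE, adjusted p = 0.0763). The call of gata6.S was kept without DBM and without HMM, which are nearly the same contrasts as those against each RNA, and with both pooled. In the pooled fit it was kept without ICD replicate 1 and lost without ICD replicate 2 (adjusted p = 0.0646).

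hhex.L (Entrez Gene 373590) came next at this offset. Its brighter probe set stood at 16.4 on ICD replicate 1, 10.2 on ICD replicate 2, 128.7 with HMM and 112.8 with DBM. Both ICD signals lie under the offset of 17.99, so the size of the fold depends on that offset. They also lie under the filter level, so this probe set entered the test through DBM and HMM. With no filter its limma adjusted p against the mean of DBM and HMM was 0.0319. The gene fell 4.45-fold (log2 difference -2.15 ± 0.33 SE, adjusted p = 0.0188), and the difference ran from -2.65 to -1.18 when the offset was 0.1 or 1 times the median signal in place of 0.25. With the largest offset gata4.S (-1.29) and gata5.S (-1.19) lay lower than hhex.L (-1.18). Against DBM alone the adjusted p was 0.0566 and against HMM alone 0.0517, so in the fit over all 4 arrays hhex.L passed against the mean of both and against neither alone. The dimmer probe set stood at 5.90 and 5.69 on the ICD arrays, 22.7 with HMM and 18.1 with DBM. These signals do not overlap but all lie under the filter level, and the difference of -0.69 did not pass when every probe set was tested (adjusted p = 0.359). The call was lost without DBM (adjusted p = 0.0519) and kept without HMM (0.0476). With DBM and HMM pooled it was kept (0.0274), and then lost when ICD replicate 1 (0.0655) or ICD replicate 2 (0.112) was left out.

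gata5.S was brighter than the filter level on every array. GATA5 acts high in the endoderm program of the frog, downstream of nodal signals. The probe set of gata5.S (Entrez Gene 398144) stood at 88.1 on ICD replicate 1, 103.4 on ICD replicate 2, 277.5 with HMM and 346.3 with DBM. The groups were apart and the ICD arrays close together, and the gene fell 2.89-fold (log2 difference -1.53 ± 0.30 SE, adjusted p = 0.0421). The probe set of its other copy gata5.L (Entrez Gene 379521) stood at 43.5 and 59.7 on the ICD arrays, 63.1 with HMM and 53.9 with DBM. There the groups overlapped, and the log2 difference of -0.14 (95% confidence interval -0.94 to 0.65) did not pass (adjusted p = 0.963). The call of gata5.S was close to the threshold and was lost without DBM (adjusted p = 0.171), without HMM (0.0905) and with both pooled (0.0543), which became 0.206 when ICD replicate 1 was left out and 0.175 when ICD replicate 2 was.

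gata4 had 2 probe sets for each copy, and the copies differed in which of DBM and HMM was higher. They differed likewise in which of the ICD arrays was higher, so the order of DBM and HMM is not read as an effect of these RNAs. GATA4 acts in endoderm and is needed for heart formation. The brighter probe set of gata4.S (Entrez Gene 399302) stood at 102.8 on ICD replicate 1, 66.2 on ICD replicate 2, 394.5 with HMM and 236.3 with DBM. It fell 3.21-fold (log2 difference -1.68 ± 0.33 SE, adjusted p = 0.0427). The second gata4.S probe set stood at 42.9, 26.2, 113.0 and 60.4 in the same order of arrays. It had the same ranking and a log2 difference of -0.97 that did not pass (adjusted p = 0.245). The brighter probe set of gata4.L (Entrez Gene 443781) stood at 5.25 and 24.9 on the ICD arrays, 62.2 with HMM and 129.9 with DBM. Its ICD arrays differed widely (15.0 ± 13.9, SD, n = 2) and its log2 difference of -1.79 ± 0.40 (SE) did not pass (adjusted p = 0.0641). It passed with quantile normalization (adjusted p = 0.0469). The other gata4.L probe set stayed at or under 13.7 on every array and showed no order. The call of gata4.S was likewise lost without DBM (adjusted p = 0.0738), without HMM (0.239) and with both pooled (0.0900), which became 0.147 when ICD replicate 1 was left out and 0.304 when ICD replicate 2 was.

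**Figure D2:**
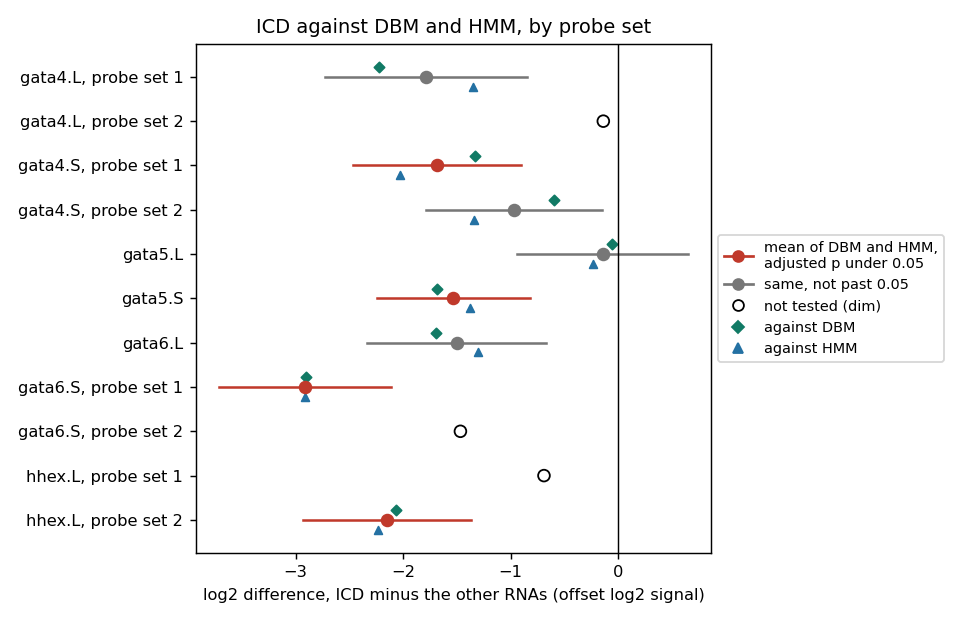
Log2 difference of ICD from the mean of DBM and HMM for each probe set, with 95% confidence intervals from the limma fit (red, adjusted p under 0.05; grey, not past it; open, not tested), and the differences from DBM and from HMM alone as small symbols. gata6.S lies lowest at -2.91 and is nearly the same against either RNA, and the interval of gata5.L spans 0.

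The homeologs were then set side by side in a test of the difference between copies. The per-array difference of the L from the S signal was fitted with limma over 1360 genes with both copies past the filter, which called 8 of them, 0.588%. The difference of the L copy minus that of the S copy was 1.39 ± 0.33 (SE) on the log2 scale for gata5 and 1.41 ± 0.33 for gata6. Neither passed over all pairs (adjusted p = 0.213 and 0.208). The 95% confidence intervals of these differences, not adjusted for the number of pairs, were 0.55 to 2.22 for gata5 and 0.59 to 2.23 for gata6. An unadjusted limma p under 0.05 was found in 134 of the 1360 pairs (9.85%). By that p gata6 ranked 41 and gata5 ranked 47. When the offset was 1 times the median signal, the gata6 pair passed (adjusted p = 0.0315) and the gata5 pair did not (0.0603). With 0.1 times the median neither passed (adjusted p = 0.359 for gata6 and 0.308 for gata5). With HMM and DBM the L copies of gata5 and gata6 were dimmer than the S copies. The offset understates differences of dim probe sets more. With 0.1 times the median the copy difference was 1.46 for gata5 and 1.38 for gata6, and with 1 times the median it was 1.11 and 1.23. Copy and brightness go together in both genes, and the part of brightness was not tested. The gata4 copies differed by -0.10 ± 0.54 (SE), with a 95% confidence interval of -1.47 to 1.26 and an adjusted p of 0.997, and the sign of that value depended on the setting. A difference between copies of over 1 on the log2 scale was seen in 7.21% of the 1360 pairs. Probe sets can pick up transcripts of the other copy, and whether they did so here was not tested.

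**Figure D3:**
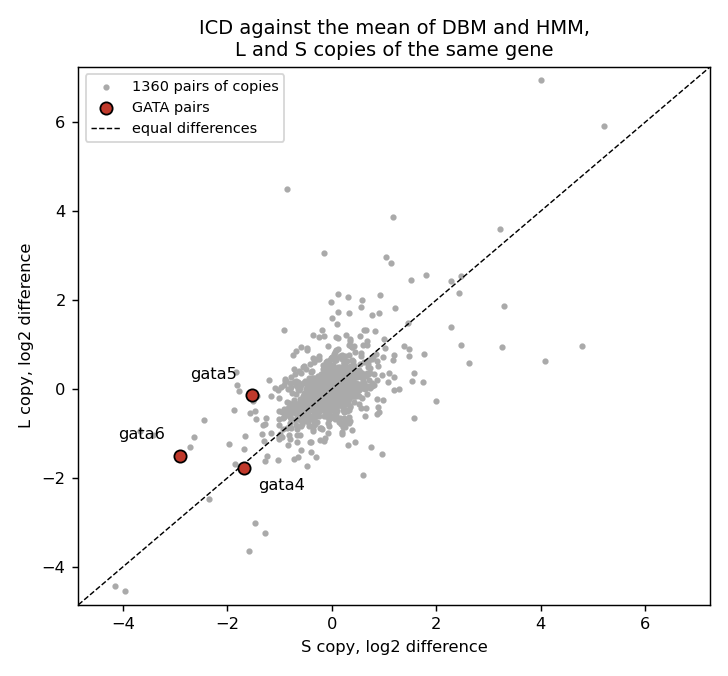
Log2 difference of ICD from the mean of DBM and HMM for the S copy (x axis) and the L copy (y axis) of 1360 genes, with the GATA pairs in red and a dashed line of equal differences. gata4 lies at the line, and gata5 and gata6 lie above it, by 1.39 and 1.41.

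DBM and HMM were compared as values only, with 1 array each. The log2 difference of DBM from HMM ran from -0.74 to 0.88 over the 11 probe sets, and 0 of them exceeded 1 in size. Its median size was 0.38 over these 11, dim ones included, against 0.30 over the tested probe sets of the whole table. The difference between the ICD arrays had a median size of 0.43 over the same 11 and of 0.29 over the tested probe sets. gata6.S was nearly equal with DBM and HMM in its main probe set (-0.01), while its second, dim probe set gave -0.38. hhex.L had a value of -0.17 in each probe set. gata4.S was higher with HMM in both probe sets (-0.70 and -0.74), while gata4.L was higher with DBM in its brighter probe set (0.88). The other gata4.L probe set gave 0.69 at signals of 1.64 with HMM and 13.7 with DBM, too dim to be read as an order.

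The wider endoderm list gave little signal. Of 35 measured gene copies, 27 were too dim to test. sox17a, sox17b.1, mixer, cer1 and foxa4, defining factors of early endoderm, had 10 probe sets that all lay between 0.64 and 21.5 on all arrays, and 0 passed the filter. Their summed signal was 85.7 and 127.2 on the ICD arrays, 92.0 with HMM and 80.4 with DBM, and at such dim signals no order can be read from them. Of the 8 copies tested, 1 fell, 1 rose and 6 did not pass. Over all tested probe sets 2.04% were called lower with ICD and 1.9% higher, for this list and those that follow. The median difference was -0.76 over the 8 tested copies, against -0.01 over all tested probe sets. Over all 35 copies it was -0.07, so no shift of the list as a whole is read from the tested ones. The one that fell was sox7.L, a SoxF transcription factor gene related to sox17. It stood at 73.0 and 40.3 on the ICD arrays, 710.1 with HMM and 1625 with DBM, which is 15.0-fold lower with ICD (adjusted p = 0.00195). The one that rose was foxa2.L, a forkhead factor of endoderm and floor plate. It stood at 292.4 and 654.6 on the ICD arrays, 8.80 with HMM and 23.0 with DBM (log2 difference 3.79 ± 0.44 SE, adjusted p = 0.00799). cdx2.L (-1.50, adjusted p = 0.0589) and foxa1.S (-1.41, adjusted p = 0.136) did not pass.

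The ectodermal relatives gata2 and gata3, targets of BMP signals in the epidermis, were bright and did not pass. The brighter probe set of gata2.L stood at 7936 and 5336 on the ICD arrays, 5969 with HMM and 6670 with DBM. Its log2 difference was 0.04 with a 95% confidence interval of -0.69 to 0.78 (adjusted p = 0.991). gata3.S gave 0.08 with an interval of -0.40 to 0.57 (adjusted p = 0.968). gata1, a blood member of the family, had signals of 1.98 to 16.4 in both copies. Of 8 measured copies of GATA relatives and cofactors, 5 were tested and 0 passed limma, with 0 at an unadjusted p under 0.05. Among those, gatad2a.S (0.81, adjusted p = 0.569) and gatad2a.L (0.34, adjusted p = 0.867), for subunits of a repressor complex, had the largest values.

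Most genes of nodal and BMP signaling, feedback and target genes among them, did not pass. Of 25 tested gene copies 3 fell, 1 rose and 21 did not pass (median 0.09). The measured nodal ligand genes themselves were all under the filter. bmp7.1.L, a BMP ligand gene, stood at 646.5 and 717.7 on the ICD arrays, 1613 with HMM and 2323 with DBM, a 2.79-fold fall (adjusted p = 0.0141). szl.L and szl.S, copies of the secreted feedback inhibitor of BMP signals, fell 5.58-fold and 5.10-fold (adjusted p = 0.0145 and 0.0178). tdgf1.3.L, which encodes a co-receptor of nodal ligands, rose 3.42-fold (adjusted p = 0.0113). bmp7.2.L (1.31, adjusted p = 0.146) and foxh1.L (0.92, adjusted p = 0.0784), the partner of nodal-activated SMADs, did not pass.

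Heart, blood and mesoderm markers were examined because GATA4, GATA5, GATA6 and HHEX also act there. Of 28 cardiac gene copies 5 could be tested and 2 fell, against 2.04% of all tested probe sets called lower. hand2.S, a basic helix-loop-helix factor of heart and limb precursors, stood at 24.7 and 24.5 on the ICD arrays, 223.3 with HMM and 368.6 with DBM, which is 7.17-fold lower with ICD (adjusted p = 0.00723). Both ICD signals lie under the filter level, so hand2.S entered the test through DBM and HMM. tbx2.S, a T-box repressor gene, fell 3.23-fold (adjusted p = 0.0374), and its other copy tbx2.L had a difference of -1.34 (adjusted p = 0.0784), which did not pass. srf.L, for a regulator of muscle genes, did not pass either (-0.40, adjusted p = 0.807). The 8 probe sets of the defining cardiac markers nkx2-5, tbx5, tbx20 and tnni3 lay between 0.78 and 26.2 on all arrays. The mesoderm markers tbxt, tbx6, myod1, myf5 and wnt8a had 4 of 7 probe sets past the filter, with signals up to 141.9. The blood markers tal1, lmo2, hba1 and spib had 1 of 8, with signals up to 875.5. Of the blood and endothelial list, 5 of 19 copies were tested and 2 rose, egfl7.S (2.98-fold, adjusted p = 0.0454) and spib.S (2.68-fold, adjusted p = 0.0480). egfl7.L (-0.64, adjusted p = 0.500) and runx1.L (0.47, adjusted p = 0.774) did not pass. Of 16 tested mesoderm copies 2 rose, not.L (7.12-fold, adjusted p = 0.00723) and fgf3.L (4.51-fold, adjusted p = 0.0259), 1 fell, wnt11b.L (4.04-fold, adjusted p = 0.0264), and 13 did not pass, among them ventx3.2.S (-1.52, adjusted p = 0.0794) and not.S (1.13, adjusted p = 0.144).

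**Figure D4:**
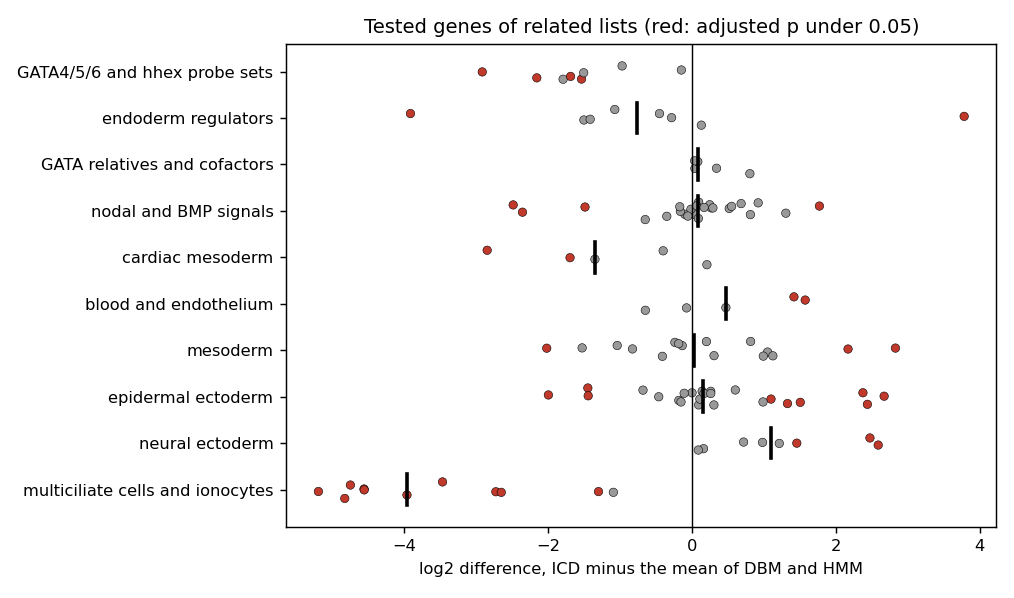
Log2 difference of ICD from the mean of DBM and HMM for tested genes of each list, 1 point per gene copy (red, adjusted p under 0.05), with a black bar at the median of each list. The GATA and hhex probe sets in the top row, drawn without a median, lie from -2.91 to -0.14, and the 5 tested GATA relatives lie from 0.04 to 0.81.

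Markers of other ectodermal cell types were examined in the same comparison. Of 11 tested copies of multiciliate cell and ionocyte genes 10 fell (median -3.96), including mcidas.S (-5.19), the coactivator of the multiciliate program, ca12.L (-4.82), a carbonic anhydrase, foxi1.L (-4.74), the ionocyte regulator, ccno.L (-4.55), ubp1.L (-4.55) and ccno.S (-3.96), the largest adjusted p of these being 0.00152. tfcp2l1.L (-1.09, adjusted p = 0.125) did not pass. mcidas.S and ubp1.L had both ICD arrays under the filter level and entered the test through DBM and HMM. The summed signal of that list was 1371 and 1470 on the ICD arrays, 13851 with HMM and 25465 with DBM, and 0 of its members had a signal of 0. Its part in the differences of gata6.S, hhex.L, gata4.S and gata5.S was not tested. Of 8 neural copies 3 rose, zic1.S (2.59, adjusted p = 0.00439), sox3.S (2.48, adjusted p = 0.00830) and otx2.L (1.46, adjusted p = 0.0476). sox2.L (1.22, adjusted p = 0.324) and sox3.L (0.98, adjusted p = 0.299) did not pass. Of 24 tested epidermal copies 6 rose, 3 fell and 15 did not pass (median 0.16). The largest called differences were tp63.S (2.67), dlx6.L (2.44), klf17.L (2.38), msx2.L (-1.99), dlx6.S (1.51) and grhl3.S (-1.44), and epcam.L (0.99, adjusted p = 0.215) and grhl3.L (-0.68, adjusted p = 0.219) did not pass. Of the 35 calls named or counted in these lists, 22 were kept without DBM, 22 without HMM and 26 with both pooled, where 15 were kept without ICD replicate 1 and 6 without ICD replicate 2. ca12.L, ccno.L, foxi1.L, mcidas.S and ubp1.L were the 5 kept whichever array was left out. sox7.L and foxa2.L were lost in the pooled fit without ICD replicate 2, and hand2.S there with either ICD array left out. The 5 calls of tbx2.S, otx2.L, grhl3.S, dlx5.L and foxi4.2.L were kept in none of these settings.

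The genes with the pattern most like that of the GATA and hhex probe sets were sought over the 4 arrays. The mean profile of the 8 tested probe sets, each centred on its own mean, was -0.74 on ICD replicate 1, -0.84 on ICD replicate 2, 0.81 with HMM and 0.78 with DBM on the log2 scale. The root mean square difference from it was smallest for tmem181.L (0.04), sgk1.S (0.06), cptp.L (0.07), myt1.S (0.08), lpcat4.S (0.09) and twsg1.L (0.09) among 10285 named probe sets. Likeness over 4 arrays is loose, since it rests mainly on 1 step between ICD and the other RNAs. TWSG1 is a secreted modulator of BMP signals and MYT1 a zinc finger factor of neuron formation. twsg1.L stood at 626.6 and 597.3 on the ICD arrays, 1672 with HMM and 1955 with DBM. Of the GATA and hhex probe sets themselves, the second of gata6.S (0.14) and that of gata5.S (0.16) lay closest to the mean profile, and the second of gata4.L (0.79) and that of gata5.L (0.74) lay farthest.

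**Figure D5:**
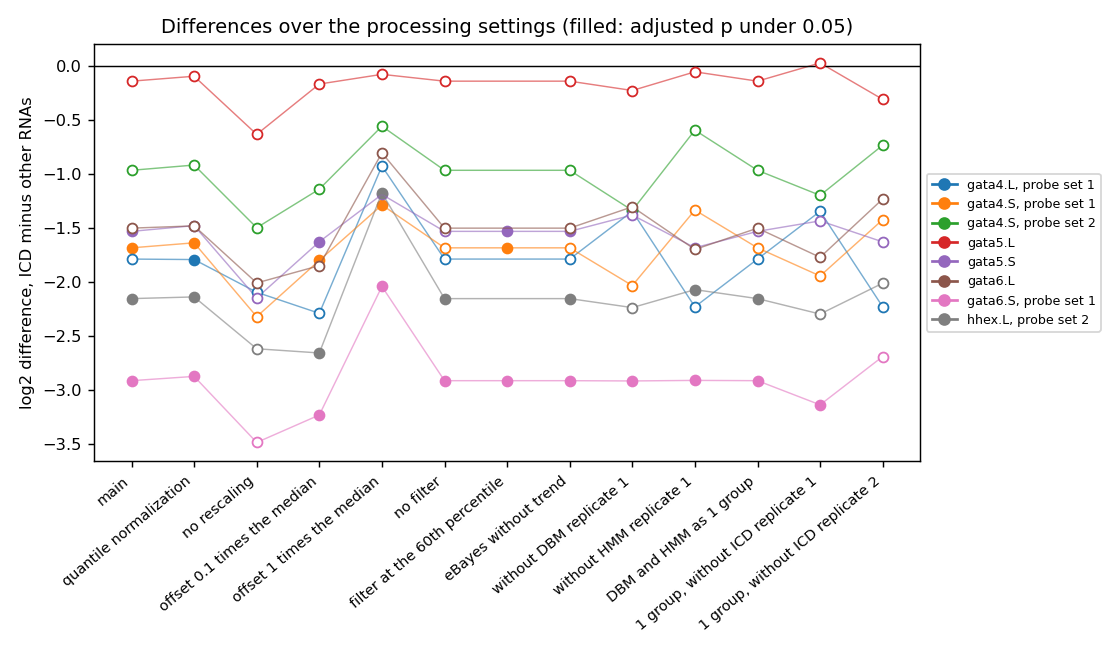
Log2 difference of ICD from the other RNAs (y axis) for the 8 tested probe sets under the reported setting ("main") and each alternative (x axis; "1 group" means that DBM and HMM were pooled), with filled points for an adjusted p under 0.05. gata6.S is lowest throughout, between -3.48 and -2.04, and gata5.L stays nearest to 0.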

How the data were processed

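MAS5 signals, an intensity per probe set and array, were deposited by the authors, per the submitters' processing notes; no version and no detection call is given in the sources used here. All value columns were assigned to samples. Symbols are those of the platform annotation, brought up to date through the Entrez Gene identifiers in RefSeq (99.3% found, 1 symbol changed). Of 32635 probe sets 96 are controls; 15495 had 1 symbol, 279 several and 16765 none. Arrays were rescaled to the common 2% trimmed mean because they differed by over 5%. The offset was 0.25 times the median rescaled signal, and the filter was the 40th percentile of the mean signal. limma 3.58.1 in R 4.3.3 (lmFit, then eBayes with an intensity trend, two-sided, Benjamini-Hochberg over all 19523 tested probe sets at 0.05) was fitted to 1 mean per RNA. It had 1 residual and 5.82 prior degrees of freedom, and the single DBM and HMM arrays are taken to vary as the ICD pair did. The fit was tested on simulated data for the main contrast, with 200 probe sets changed. At a log2 change of 2 it recovered 188 and made 39 false calls, and at 4 it recovered 200 and made 20. The share of false calls among its calls was above the nominal 0.05 at both sizes of change. Calls are therefore less certain than their adjusted p, those near the threshold among them. Lists use the brightest probe set of each gene copy, with .L and .S counted separately. Named genes were every probe set of the GATA and hhex genes, each list's calls (at most 6) and its 2 largest others, the 6 genes most alike in profile, and hey1.S and hes5.2.L. The other genes named (krt12.4.L, tfap2a.L, dlx3.L, gata1, gata2.L, gata3.S, hand2.L, foxa1.L, dlx5.L, foxi4.2.L and the defining markers) were chosen after their values were seen. The members, lists and tests were chosen with earlier results of these data known. No sequences were printed. Precision is limited by the number of arrays. Figures used matplotlib 3.10.9 in Python 3.11.15.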

Additional observations from a re-analysis of the deposited data

How the results depend on the processing

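No paired analysis was fitted, because by the labels the groups share only replicate number 1. Over all tested probe sets ICD replicate 1 correlated more with HMM (r = 0.938) than with DBM. ICD replicate 2 correlated more with DBM (r = 0.928) than with HMM. No term for such pairs of arrays was in the fit, and their cause was not tested. The GATA and hhex calls against the mean of DBM and HMM numbered 4, and 5 with quantile normalization, 4 with either other offset, 3 with a stricter filter (60th percentile, 3 tested) or without the intensity trend, and 2 without the filter or with DBM and HMM pooled. Leaving out DBM or HMM gave 1 to 2 (337 to 427 calls over all probe sets in place of 768). With both pooled (411 calls), leaving out an ICD array gave 0 to 1 (62 to 150 calls; where 0, 6 had an unadjusted p under 0.05). Without rescaling limma called 0 probe sets in each of the 3 contrasts, with 132, 88 and 56 at an unadjusted p under 0.05, and 0 of the GATA and hhex probe sets (2, 1 and 1 unadjusted). The median of all tested probe sets moved there from -0.01 to -0.67, so changes are read relative to it. Against DBM, 452 calls became 220 without the filter and 223 without the trend, and against HMM 340 became 224 and 170. Quantile normalization gave 2 GATA and hhex calls in each of these. The 8 homeolog calls became 18 with quantile normalization, 1 without rescaling, 1 with the offset factor of 0.1, 32 with that of 1, 2 without the filter, 1 to 2 without DBM or HMM, 6 with both pooled, and 0 with both pooled and either ICD array left out as well (109 to 118 at an unadjusted p under 0.05). The gata4 copy difference ran from -0.89 without HMM to 0.69 without DBM and turned positive without rescaling (0.23), with the offset factor of 1 (0.36) and without ICD replicate 1 (0.60, and -0.81 without ICD replicate 2). gata5.L turned to 0.024 without ICD replicate 1 and was -0.31 without ICD replicate 2. The causes were not tested.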

Other observations

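The gata4 copies also ran in opposite order within the ICD pair. On the log2 scale gata4.L was higher on ICD replicate 2 than on ICD replicate 1 by 0.88, and gata4.S was lower there by a value of -0.52. The same opposite order appeared between DBM and HMM, where the difference of DBM from HMM was 0.88 for gata4.L and -0.70 for gata4.S. Over all tested probe sets ICD replicate 1 correlated more with HMM (r = 0.938) than with DBM (0.912). ICD replicate 2 correlated more with DBM (0.928) than with HMM (0.896). Such a parallel is therefore not particular to gata4, and its cause was not tested. For hand2 the S copy fell, while hand2.L lay between 10.1 and 22.1 on all arrays. For foxa1, foxa1.L was too dim to test and foxa1.S stood at 62.3 and 141.7 on the ICD arrays, 169.4 with HMM and 466.1 with DBM.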
